A study of Mus musculus with 9 samples.

Results

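Interferon-stimulated genes are the genes that a cell transcribes more strongly after interferon binds its receptor. The 9 described here are Gbp2, Cxcl10, Oasl2, Bst2, Isg15, Ifit1, Ifit3, Irf1 and Irf7. The array gave 26866 tested features, 1 probe per gene or, where no gene symbol was matched, per target name in the scanner files. Of these features, 16090 had a gene symbol, and shares of all features are taken over both kinds. The 9 mouse genes were chosen by symbol with earlier results of these data known. They were found through the RefSeq accession that the scanner files pair with each probe, which gave 11 probes, and 7 of the 9 genes passed the filter on dim probes. The RNA came from the mouse embryonic stem cell line J1 (strain 129S4/SvJae), adapted to gelatin and kept in serum replacement. Each of the 3 groups had 3 arrays with a single dye, and every group was kept for 24 h with leukaemia inhibitory factor (LIF) at 1000 U/mL. One group received DMSO, the solvent control, another 3 µM CHIR99021, an inhibitor of the kinase GSK3, and the third 1 mM AICAR, a nucleoside that cells convert into an AMP mimic. All samples come from 1 cell line, and the labels do not say whether the numbered replicates were separate cultures, so the spread behind the p-values is that of these samples and may be technical.

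Type I interferons signal through the receptor subunits IFNAR1 and IFNAR2 and the kinases JAK1 and TYK2 to a complex that holds STAT2 and IRF9, which binds a DNA element called the interferon-stimulated response element (ISRE). Interferon gamma signals through IFNGR1 and IFNGR2 to another element, the gamma-activated site (GAS). Embryonic stem cells are known for a weak interferon response compared with differentiated cells.

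The promoters of the 9 genes were set beside the expression values because these elements are the known sites of interferon signalling on DNA. RefSeq (GRCm38.p6) gave a window from 250 bases before to 50 bases after the annotated start for 9 of 9 genes, with 10 windows in all because Irf1 has a pair of starts. The windows were searched on both strands for the ISRE core GAAANNGAA and for the GAS TTCNNNGAA. The ISRE core was found in 6 of the 9 genes and the GAS in 2, against 8.56% and 8.3% of all 32851 windows of the same length. The stretches with a match are printed 5′ to 3′ on the strand of the gene, with the matched bases in capitals. Overlapping matches run together, and a match read on the opposite strand appears as its reverse complement.
Gbp2: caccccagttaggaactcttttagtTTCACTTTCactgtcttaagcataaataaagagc
Cxcl10: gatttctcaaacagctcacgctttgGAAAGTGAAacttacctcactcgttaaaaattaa
Bst2: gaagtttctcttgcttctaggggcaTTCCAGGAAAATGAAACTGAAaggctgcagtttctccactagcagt
Isg15: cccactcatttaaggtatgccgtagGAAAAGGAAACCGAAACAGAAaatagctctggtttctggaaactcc
Ifit1: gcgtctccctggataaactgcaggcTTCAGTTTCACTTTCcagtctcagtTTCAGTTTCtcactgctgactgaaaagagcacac
Ifit3: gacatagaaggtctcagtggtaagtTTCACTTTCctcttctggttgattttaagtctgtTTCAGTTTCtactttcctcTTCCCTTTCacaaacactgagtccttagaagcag
Irf1: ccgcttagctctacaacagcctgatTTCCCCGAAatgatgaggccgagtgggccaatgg

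The Gbp2 stretch lies at chr3:142620580-142620638 on the plus strand, and that of Cxcl10 at chr5:92349069-92349127 on the minus strand. The Bst2 stretch lies at chr8:71537563-71537633 and that of Isg15 at chr4:156200851-156200921, both on the minus strand. Ifit1 (chr19:34640755-34640838), Ifit3 (chr19:34583349-34583460) and Irf1 (chr11:53769899-53769957) are on the plus strand. Gbp2 and Cxcl10 each hold 1 ISRE core, Ifit1, Ifit3 and Isg15 hold 3 each, and Bst2 holds 2 with a GAS that overlaps the first of them. Irf1 holds the GAS only, at -90 to -82 from its first start. Neither set of letters is in the windows of Irf7 and Oasl2. Matches are descriptions of sequence, and no binding was measured.

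**Figure D1:**
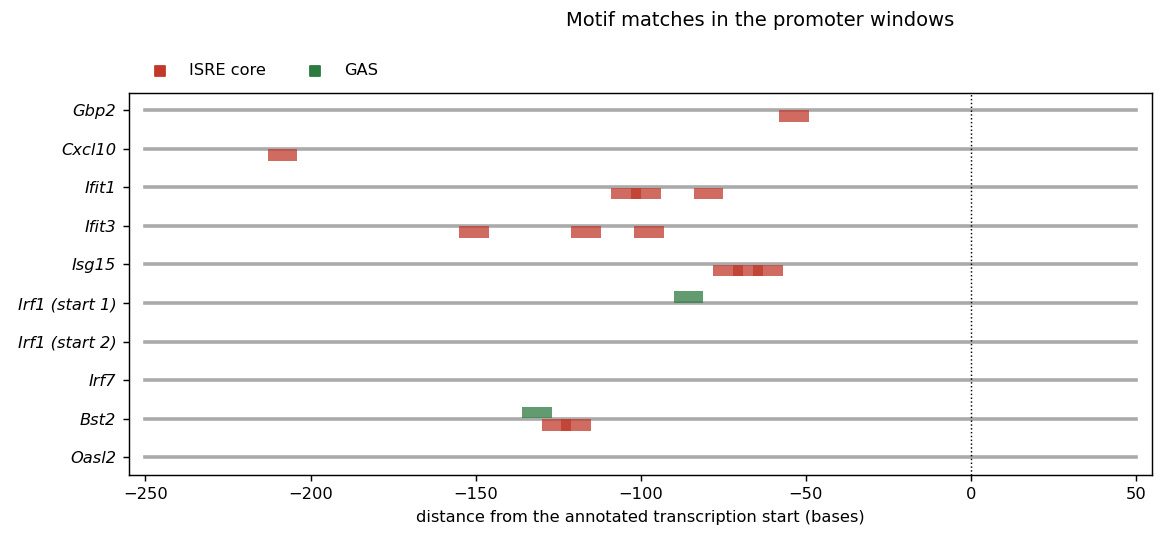
Each grey line is 1 promoter window, drawn against the distance in bases from the annotated start (dotted line), with ISRE core matches in red and GAS matches in green. Of the 9 genes, 6 have an ISRE core, 2 have a GAS, and Irf7, Oasl2 and the second start of Irf1 have neither.

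Of the spots on each of the 9 arrays, 62.8% to 67.2% were well above background, and the processed signal had its 75th percentile at 567 to 617. All 8 embryonic stem cell markers, Pou5f1, Nanog and Sox2 among them, were well above background on every array. Their summed level, relative to each array's 75th percentile, was 527 to 548 in DMSO, 458 to 482 in CHIR99021 and 526 to 574 in AICAR. With CHIR99021 2 of the 8 rose and 3 fell, beside 30.4% and 20.5% of all features. With AICAR 4 rose and 2 fell, beside 30.9% and 29.6%. The summed level of 8 fibroblast markers, relative to each array's 75th percentile, was 2.06 to 2.22 in DMSO, 2.22 to 2.36 in CHIR99021 and 3.26 to 3.93 in AICAR, with Lum and Postn above background nowhere. Thy1 made up 66.6% to 69.6% of the tested markers' sum in AICAR, where 2 of 6 tested markers, Thy1 and Pdgfrb, rose and 3 fell (median log2 fold change -0.35). All features rose and fell there at 30.9% and 29.6%, and Dcn, among the 3, was above background on no AICAR array. The sum over the 7 myeloid markers with a probe was 12.5 to 13.1, 14.3 to 15.2 and 14.5 to 17.1, with Lyz2 above background nowhere. Itgam made up 93.07% to 95.01% of the tested myeloid markers' sum on every array. Such sums and shares add the signals of different probes, so they describe signal and not amounts of transcript. The part of these markers in the results was not tested. The 3 slides held 1 group each and were scanned at 3 times, so in no comparison can slide or scan be told apart from group. In these bulk samples, fewer cells with a transcript and less of it per cell cannot be told apart either.

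Values below are levels as log2 of the processed signal minus the array's 75th percentile, so a level of 0 is at that percentile, and levels of different probes are not compared. The words rose and fell are used where the adjusted p was under 0.05 in the limma fit over all 26866 features, and the error given with a log2 fold change is its standard error, with n = 3 arrays per group.

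With CHIR99021, 4 interferon-stimulated genes fell and none rose. Gbp2 and Cxcl10 fell most, Oasl2 and Bst2 fell by less, and Isg15, Irf1 and Irf7 did not pass the test. Ifit1 and Ifit3 were not measurable in any group. With AICAR, Bst2, Oasl2, Irf1 and Gbp2 fell and none rose, while the fitted difference of Cxcl10 was close to 0. Across all features, 51.0% passed the test in CHIR99021 against DMSO (30.4% higher and 20.5% lower), and 60.5% in AICAR against DMSO (30.9% higher and 29.6% lower). Both comparisons use the same 3 DMSO arrays.

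**Figure D2:**
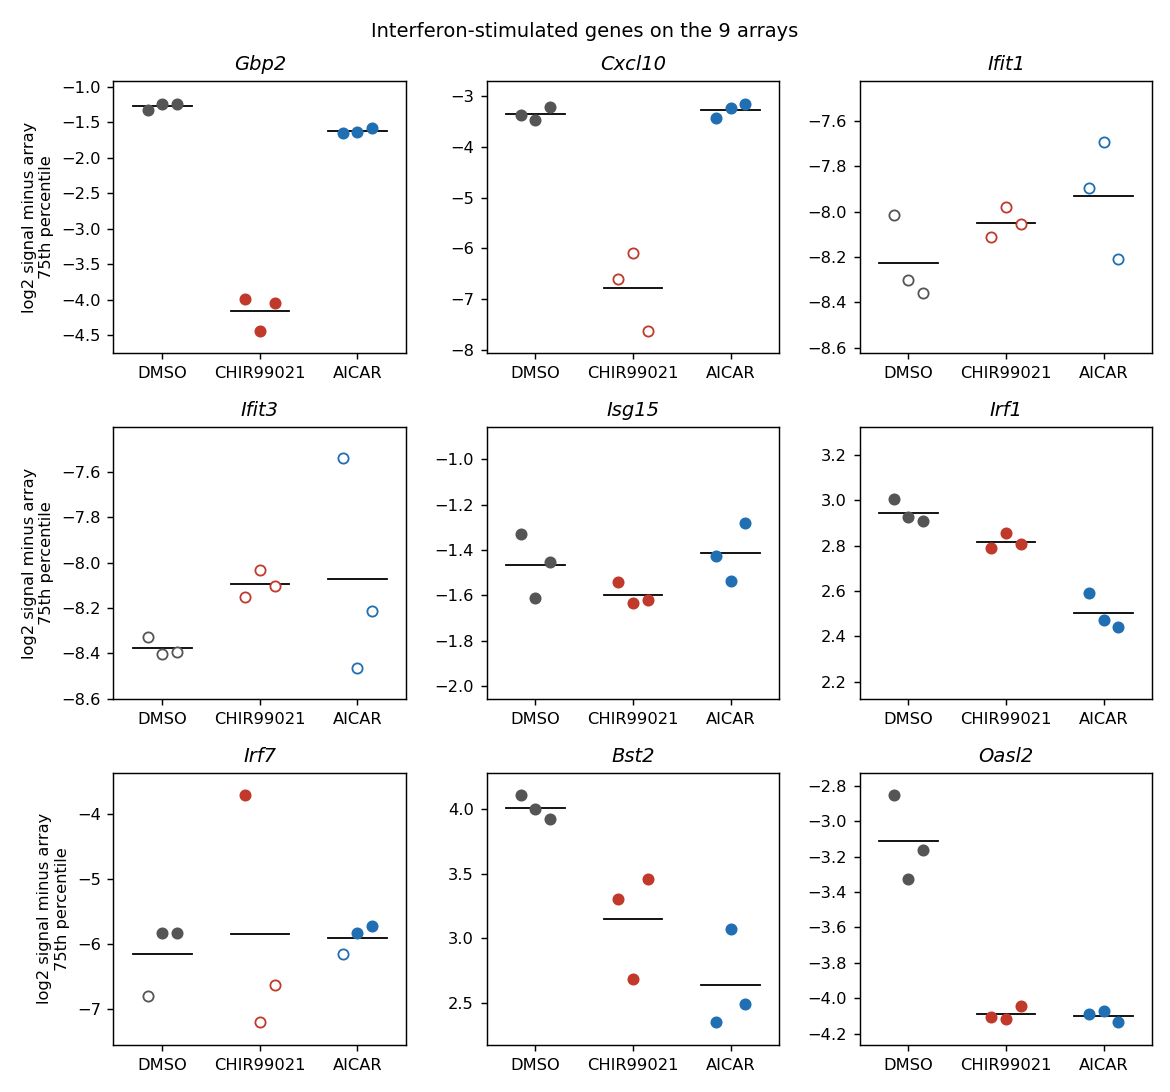
Each panel is 1 gene and each point 1 array, with the level (log2 signal minus the array's 75th percentile) on the vertical axis, a bar at each group's mean, and open points where the probe was not well above background on that array. The vertical scale differs between panels. Gbp2 and Cxcl10 are low on the 3 CHIR99021 arrays only, Oasl2 is low on all 6 treated arrays, and every point of Ifit1 and Ifit3 is open.

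Gbp2 encodes an interferon-induced GTPase that acts on the membranes of vacuoles holding pathogens. Its level was -1.33, -1.25 and -1.24 on the DMSO arrays, -3.99, -4.44 and -4.04 with CHIR99021, and -1.65, -1.64 and -1.58 with AICAR, well above background on all 9. The 3 groups did not overlap, with CHIR99021 far below the other two and AICAR slightly below DMSO. Gbp2 was 7.38-fold lower with CHIR99021, a log2 fold change of -2.88 ± 0.11 (adjusted p = 7.81e-07). With normexp background correction, which by its offset draws dim genes toward 0, this was -1.79 (adjusted p = 4.67e-10). The log2 fold change with AICAR was -0.35 ± 0.11 (adjusted p = 0.0252), and this small difference did not hold under every setting. Scaled on the spike-in controls it was -0.16 (adjusted p = 0.381), and the call was also lost without DMSO replicate 2 (adjusted p = 0.0675), DMSO replicate 3 (0.0689), AICAR replicate 1 (0.0655) or AICAR replicate 2 (0.0614).

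Cxcl10 encodes a chemokine that draws activated T cells and natural killer cells. Its level was -3.38, -3.48 and -3.22 on the DMSO arrays and -3.44, -3.25 and -3.16 on the AICAR arrays, all well above background. With CHIR99021 the values were -6.60, -6.09 and -7.61, and none of the 3 arrays was well above background. All CHIR99021 values were below all others, while those of DMSO and AICAR overlapped. The CHIR99021 level was at least 5.38-fold lower than in DMSO (adjusted p = 9.35e-05). This bound sets the DMSO mean against the higher, per CHIR99021 array, of the probe's own signal and the dimmest signal that counted as well above background on that array. Normexp gave a fitted log2 fold change of -0.78 (adjusted p = 9.66e-07). AICAR minus DMSO was 0.08 ± 0.33 (adjusted p = 0.852), with a 95% interval of -0.69 to 0.85. This shared error takes in the CHIR99021 arrays, with an SD of 0.78 against 0.13 in DMSO and 0.14 with AICAR. Cxcl10 passed the filter through its DMSO and AICAR arrays, so its place among the tested genes says nothing of how the family moved.

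Oasl2 encodes an oligoadenylate synthetase-like antiviral protein. Its level was -2.86, -3.33 and -3.16 in DMSO, -4.10, -4.12 and -4.04 with CHIR99021, and -4.09, -4.07 and -4.13 with AICAR. Every treated array lay below every DMSO array, and the values of the treated groups overlapped. Oasl2 fell by 0.97 ± 0.11 on the log2 scale with CHIR99021 (adjusted p = 0.000181) and by 0.98 ± 0.11 with AICAR (adjusted p = 0.00011). Both calls held in the 20 alternatives run for each, with the smallest differences, -0.55 and -0.57, under normexp.

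Bst2 encodes tetherin, a membrane protein that holds budding virus particles on the cell surface. Its level was 4.10, 3.996 and 3.92 in DMSO, 3.31, 2.68 and 3.46 with CHIR99021, and 2.35, 3.07 and 2.49 with AICAR. All treated arrays lay below the DMSO arrays, and the treated groups overlapped and spread more, with SDs of 0.41 and 0.38 against 0.09. The log2 fold change was -0.86 ± 0.24 with CHIR99021 (adjusted p = 0.0173) and -1.37 ± 0.24 with AICAR (adjusted p = 0.00139). Without DMSO replicate 1 the CHIR99021 difference of Bst2 was -0.81 and missed the threshold (adjusted p = 0.0535).

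Isg15 encodes a ubiquitin-like protein that is joined to other proteins during the antiviral response. Its level was -1.33, -1.61 and -1.45 in DMSO, -1.54, -1.63 and -1.62 with CHIR99021, and -1.42, -1.54 and -1.28 with AICAR. The values of each treated group overlapped those of DMSO. The differences from DMSO were -0.13 ± 0.09 for CHIR99021 (adjusted p = 0.254, 95% interval -0.34 to 0.08) and 0.05 ± 0.09 for AICAR (adjusted p = 0.644, 95% interval -0.16 to 0.26). A second Isg15 probe was above background on none of the 9 arrays.

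Ifit1 and Ifit3 encode proteins that bind viral RNA and hold back its translation. Neither was well above background on any of the 9 arrays. The group means of the processed signal of Ifit1 were 2.05 in DMSO, 2.19 with CHIR99021 and 2.45 with AICAR, and those of Ifit3 were 1.84, 2.11 and 2.30. No order is read from values below background. With no filter on dim probes neither gene was called in any comparison, with adjusted p-values of 0.146 to 0.937.

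Irf1 and Irf7 encode transcription factors that switch on interferon genes and interferon-stimulated genes. The level of Irf1 was 3.00, 2.93 and 2.91 in DMSO, 2.79, 2.86 and 2.81 with CHIR99021, and 2.59, 2.47 and 2.44 with AICAR. The 3 groups did not overlap, and AICAR was the lowest. Irf1 fell by 0.44 ± 0.06 on the log2 scale with AICAR (adjusted p = 0.000233), a call that was lost on the spike-in scale (-0.25, adjusted p = 0.0969). CHIR99021 minus DMSO was -0.13 ± 0.06 (adjusted p = 0.0888), and Irf1 passed the test as lower under 4 alternatives, among them quantile normalization (adjusted p = 0.0218) and median scaling (adjusted p = 0.0426). A second Irf1 probe was above background on no array.

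Irf7 is the factor known for amplifying type I interferon. Its level was -6.80, -5.82 and -5.83 in DMSO, -3.71, -7.20 and -6.63 with CHIR99021, and -6.15, -5.83 and -5.73 with AICAR. The probe was well above background on 2, 1 and 2 arrays of the groups, and CHIR99021 replicate 1 stood apart from the other 8 arrays. Differences from DMSO were 0.30 ± 0.81 for CHIR99021 (adjusted p = 0.782) and 0.25 ± 0.81 for AICAR (adjusted p = 0.810), and these values do not fix a direction for Irf7. The SD was 1.875 with CHIR99021, 0.56 in DMSO and 0.22 with AICAR, and the shared error takes in all 3 groups.

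Among the 7 tested genes, the median log2 fold change was -0.86 with CHIR99021 and -0.35 with AICAR, beside medians of 0.07 and 0.03 over all features. Cxcl10 was tested only through its DMSO and AICAR arrays, and over the 6 genes without it the CHIR99021 median was -0.49. The 3 CHIR99021 arrays did not overlap the 3 DMSO arrays in 5 genes, against 63.3% of all features, and the AICAR arrays did not in 4, against 67.1%. With 51.0% and 60.5% of all features called, a called share of 4 in 7 is near the background in both comparisons, and the counts are a description of these genes.

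The treatments were then compared with each other, with 60.8% of all features called (36.2% higher and 24.6% lower in CHIR99021) and a median over all features of 0.10. Gbp2 and Cxcl10 were lower with CHIR99021 than with AICAR, Irf1 was higher, and the other 4 tested genes did not pass. Gbp2 differed by -2.53 ± 0.11 (adjusted p = 8.23e-07), and Cxcl10 was at least 5.69-fold lower (adjusted p = 4.48e-05). Irf1 was higher by 0.32 ± 0.06 (adjusted p = 0.0014), but this call was lost with normexp (adjusted p = 0.0734), quantile normalization (0.0522) and spike-in scaling (0.603). Oasl2 differed by 0.01 ± 0.11 (adjusted p = 0.949), with a 95% interval of -0.24 to 0.26. Bst2 differed by 0.51 ± 0.24 (adjusted p = 0.0940, 95% interval -0.03 to 1.06). It was called higher without CHIR99021 replicate 2 (0.75, adjusted p = 0.0166) or without AICAR replicate 2 (0.73, adjusted p = 0.0240). Isg15 differed by -0.18 ± 0.09 (adjusted p = 0.110), although its 2 treated groups did not overlap, as they did not in 65.5% of all features. On the spike-in scale Isg15 was called lower with CHIR99021 (-0.42, adjusted p = 0.0496). Irf7 differed by 0.05 ± 0.81 (adjusted p = 0.959), and by -1.01 without CHIR99021 replicate 1 (adjusted p = 0.0354).

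**Figure D3:**
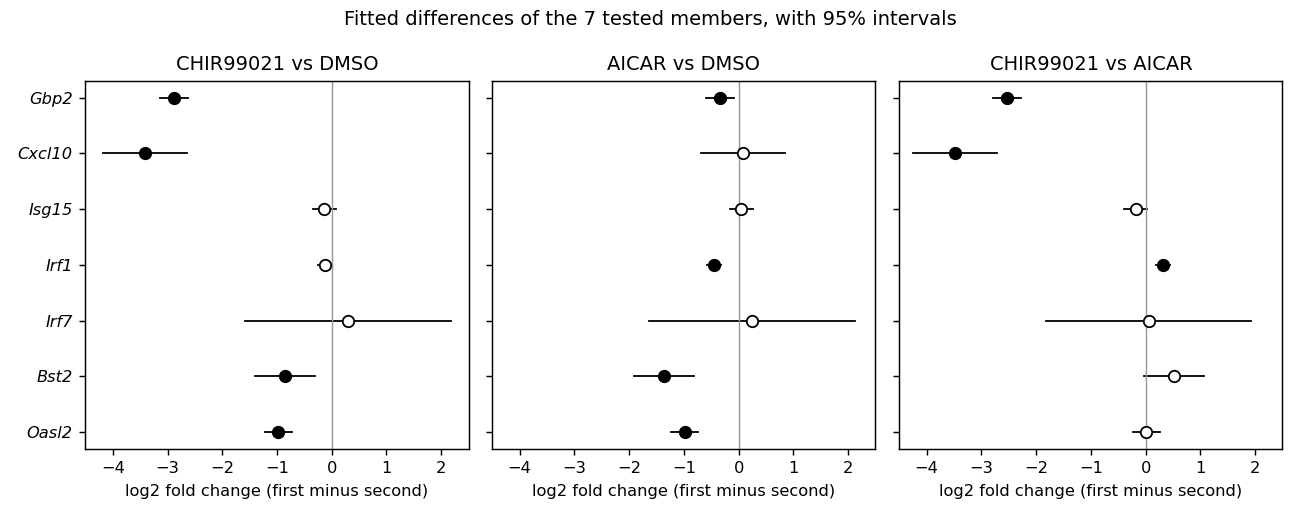
Points are log2 fold changes of the 7 tested genes with their 95% intervals (lines), filled where the adjusted p was under 0.05, with 1 panel per comparison and the named first group minus the second. Gbp2 and Cxcl10 lie far below 0 in both panels with CHIR99021, Oasl2 is near -1 against DMSO under both treatments, and the intervals of Irf7 span several log2 units.

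For the 3 genes with a log2 fold change of at least 1 against DMSO, the genes with the most similar profile over the 9 arrays were found by the root mean square difference on the log2 scale, each profile taken relative to its DMSO mean. Nearest to Gbp2 were Gbp2b at 0.29, Prmt8, an arginine methyltransferase gene, at 0.29, and Psmb8, a subunit of the immunoproteasome, at 0.29. Gbp2b is a relative of Gbp2 and was above background on 1 of the 3 CHIR99021 arrays. Whether its probe also binds Gbp2 transcripts was not tested, so the 2 profiles are not taken as separate evidence. Nearest to Cxcl10 were Myadml2 at 0.40, Cd96, a lymphocyte receptor gene, at 0.41, and Dll1, which encodes a Notch ligand, at 0.43. Myadml2 and Cd96 were, like Cxcl10, above background on none of the 3 CHIR99021 arrays, whereas Dll1 was above it on all. Nearest to Bst2 were Rab13, a small GTPase gene, at 0.18, Abcb1a, a drug efflux transporter gene, at 0.20, and Tapbpl, which encodes a relative of the MHC class I chaperone tapasin, at 0.21.

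The 9 genes were set beside 123 other genes of the interferon and NF-kB pathways, of which 118 had a probe and 101 were tested. Without the NF-kB list 92 were tested. With CHIR99021, 25 of these 92 rose and 39 fell (median log2 fold change -0.09), against the 30.4% and 20.5% of all features. The 39 include Erap1, which was above background on no CHIR99021 array. With AICAR, 38 rose and 27 fell (median 0.12), against 30.9% and 29.6%. The 38 include Irf2, Rsad2 and Herc6, which passed the filter only through their AICAR arrays and so do not bear on the balance. Over all 101, the same genes included, the AICAR counts were 42 and 31, and 48 and 17 on the spike-in scale. Lists were chosen by role, with earlier results of these data known, and they hold genes that moved both ways.

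**Figure D4:**
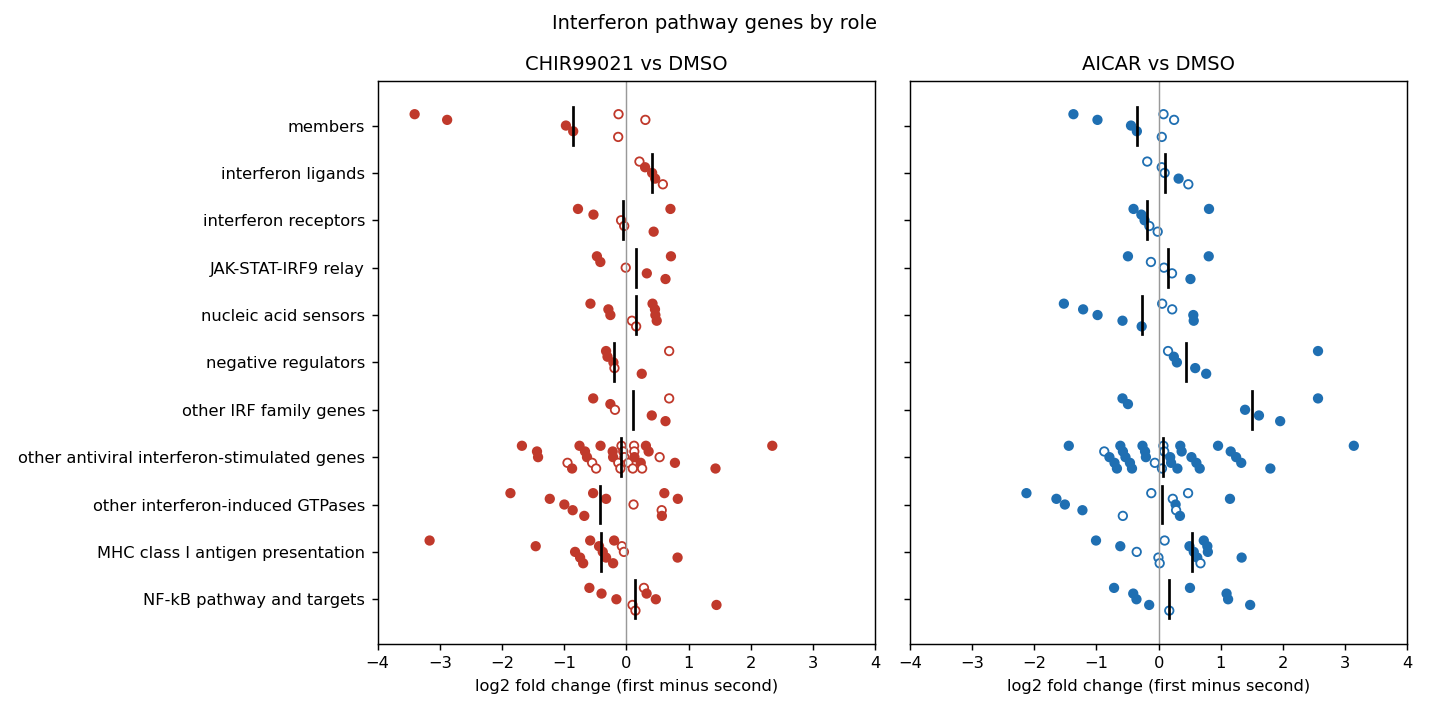
Each point is the log2 fold change of 1 tested gene against DMSO, in rows by role, filled where the adjusted p was under 0.05, and the black bar is the median of the row. With CHIR99021 the MHC class I row has its median at -0.41, or -0.38 without Erap1, and with AICAR the same row has it at 0.53.

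Few interferon ligand genes could be measured. Of 10 ligand genes 5 were tested, and Ifnb1, Ifna4, Ifne and Ifng were above background on no array. With CHIR99021 the interferon alpha genes Ifna2 and Ifna5 and the lambda gene Ifnl3 rose, by 0.46 ± 0.14, 0.41 ± 0.11 and 0.30 ± 0.07 on the log2 scale (adjusted p = 0.0257, 0.0153 and 0.00864). The alpha genes are near-identical copies, and their calls were lost on the spike-in scale (adjusted p = 0.118 and 0.122). They were also lost without CHIR99021 replicate 1 (adjusted p = 0.0729 for Ifna2 and 0.0526 for Ifna5), and without CHIR99021 replicate 3 or DMSO replicate 2 for Ifna2 (0.0815 and 0.0767) and DMSO replicate 3 for Ifna5 (0.0539). Ifnl3 also lost its CHIR99021 call on the spike-in scale (adjusted p = 0.0559) and with normexp (0.0949). With AICAR only Ifnl3 passed among the 5, at 0.32 ± 0.07 (adjusted p = 0.0048).

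All 6 receptor genes were measured. With CHIR99021 the interferon gamma receptor chain gene Ifngr1 fell by 0.78 ± 0.06 on the log2 scale (adjusted p = 2.19e-05) and the type I chain gene Ifnar2 fell by 0.53 ± 0.05 (adjusted p = 6.52e-05). The second gamma chain gene, Ifngr2, rose by 0.44 ± 0.07 (adjusted p = 0.00162). Il10rb, a chain shared by the lambda and IL-10 receptors, was higher by 0.71 ± 0.20 (adjusted p = 0.0195), and this call was lost on the spike-in scale (adjusted p = 0.0629) and without DMSO replicate 2 (0.0620) or CHIR99021 replicate 3 (0.0619). The brightest probe of Ifnar1 did not pass, at -0.04 ± 0.07 (adjusted p = 0.695), although 2 of its 3 probes were called lower. The lambda chain gene Ifnlr1 was at -0.09 ± 0.07 (adjusted p = 0.345).

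With AICAR the type I chain genes Ifnar2 and Ifnar1 fell by 0.40 ± 0.05 and 0.28 ± 0.07 on the log2 scale (adjusted p = 0.000183 and 0.0091), Ifngr2 fell by 0.23 ± 0.07 (adjusted p = 0.0287), and Il10rb rose by 0.81 ± 0.20 (adjusted p = 0.00862). Ifnlr1 was at -0.01 ± 0.07 (adjusted p = 0.875) and Ifngr1 at -0.15 ± 0.06 (adjusted p = 0.0556). Ifngr1 passed as lower under some alternatives, among them median scaling (adjusted p = 0.0181) and a fit without CHIR99021 replicate 2 (0.0287). The 3 falls were lost on the spike-in scale (adjusted p = 0.160 for Ifnar2, 0.585 for Ifnar1 and 0.791 for Ifngr2). That of Ifngr2 was also lost without DMSO replicate 2 (adjusted p = 0.0939), DMSO replicate 3 (0.0792) or AICAR replicate 3 (0.0692).

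The relay from receptor to DNA moved in mixed directions. Irf9, the DNA-binding subunit of the complex that reads the ISRE, had a level of 0.59, 0.49 and 0.57 in DMSO, 1.18, 1.23 and 1.13 with CHIR99021, and 0.06, 0.03 and 0.09 with AICAR. Its 3 groups did not overlap, with CHIR99021 highest and AICAR lowest. Irf9 rose by 0.63 ± 0.05 with CHIR99021 (adjusted p = 2.73e-05), and it fell by 0.49 ± 0.05 with AICAR (adjusted p = 6.3e-05, but 0.0504 on the spike-in scale). The kinase gene Jak2 rose under both treatments, by 0.72 ± 0.06 with CHIR99021 and 0.51 ± 0.06 with AICAR (adjusted p = 5.3e-05 and 0.000204). Stat2 rose by 0.33 ± 0.07 with CHIR99021 (adjusted p = 0.00666, lost with normexp at 0.122 and on the spike-in scale at 0.127) and by 0.81 ± 0.07 with AICAR (adjusted p = 3.95e-05).

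Among the other receptor-bound kinase genes, Tyk2 fell by 0.42 ± 0.10 with CHIR99021 (adjusted p = 0.00928) and was at -0.12 ± 0.10 with AICAR (adjusted p = 0.321). Jak1 was at -0.01 ± 0.09 and 0.22 ± 0.09 (adjusted p = 0.927 and 0.0646). With AICAR it passed as higher with normexp (adjusted p = 0.000557), quantile normalization (0.0177), spike-in scaling (0.0345) and the series matrix values (0.0162).

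Of 9 tested nucleic acid sensor genes, which start interferon production, 4 rose and 3 fell with CHIR99021, and 2 rose and 5 fell with AICAR. The shares of all features that rose and fell were 30.4% and 20.5% with CHIR99021 and 30.9% and 29.6% with AICAR. With AICAR Sting1, the adaptor of cytosolic DNA sensing, fell by 1.52 ± 0.06 on the log2 scale (adjusted p = 7.96e-07). The brightest probe of Ddx58, which encodes the RNA sensor RIG-I, fell by 1.21 ± 0.04 (adjusted p = 3.63e-07), while a second probe gave -0.07, so the 2 probes disagree. The kinase gene Tbk1 and the factor it activates, Irf3, fell with AICAR too, at -0.98 ± 0.09 and -0.58 ± 0.06 (adjusted p = 3.85e-05 and 6.38e-05). With CHIR99021 Zbp1, a sensor of Z-form nucleic acid, fell by 0.58 ± 0.08 (adjusted p = 0.000549), and the adaptor gene Mavs rose by 0.47 ± 0.04 (adjusted p = 7.42e-05). The RNA sensor gene Ifih1 and Tlr3 were above background on no array.

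Negative regulators were higher with AICAR in 5 of 6 tested genes, with none lower, beside the 30.9% and 29.6% of all features. Irf2 passed the filter only through its AICAR arrays, and without it 4 of 5 were higher. Irf2, a repressor of ISRE-driven genes, was above background on all 3 AICAR arrays and on no DMSO array, and was at least 2.49-fold higher (adjusted p = 0.000176). Ptpn6, a phosphatase gene, rose by 0.77 ± 0.07 and Socs1, a feedback inhibitor of JAK kinases, rose by 0.59 ± 0.07 (adjusted p = 4.55e-05 and 0.000147). Probes of Ptpn2 disagreed with AICAR, 2 called higher and 1 lower. With CHIR99021 1 of the 6 rose and 3 fell, beside 30.4% and 20.5% of all features. On the spike-in scale none of the 6 was called, with adjusted p-values of 0.171 for Socs1, 0.132 for Socs3, 0.130 for Ptpn2 and 0.0521 for Ptpn6. The call of Socs1 was also lost without any 1 DMSO array or without CHIR99021 replicate 1 or 3 (adjusted p = 0.0502 to 0.106), and that of Socs3 without DMSO replicate 1 or 2, CHIR99021 replicate 1 or 2 or AICAR replicate 3 (0.0501 to 0.108).

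Of 6 tested genes of the IRF family of transcription factors, 4 rose with AICAR and 2 fell, beside the same shares of all features. The 4 again include Irf2, and without it 3 of 5 rose. Irf8, a factor of myeloid cells, had a level of -3.13, -2.89 and -3.07 in DMSO, -3.54, -3.78 and -3.38 with CHIR99021, and -1.03, -1.09 and -1.10 with AICAR. Its groups did not overlap, with AICAR highest. Irf8 rose by 1.96 ± 0.10 on the log2 scale with AICAR (adjusted p = 2.46e-06) and fell by 0.53 ± 0.10 with CHIR99021 (adjusted p = 0.00343). Irf5 rose by 1.61 ± 0.07 with AICAR (adjusted p = 1.1e-06). The myeloid marker sum given above was nearly all signal of the Itgam probe and was higher with both treatments, while Cd14 of the same list fell with both. The part of myeloid cells in the Irf8 values was not tested.

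Among 31 tested antiviral interferon-stimulated genes outside the 9, 7 rose and 10 fell with CHIR99021, and 14 rose and 12 fell with AICAR. All features rose and fell at 30.4% and 20.5% with CHIR99021 and at 30.9% and 29.6% with AICAR. Rsad2 and Herc6 passed the filter only through their AICAR arrays, and without them 12 of 29 rose with AICAR. Ube2l6, which encodes the enzyme that carries ISG15 to its targets, rose by 2.35 ± 0.06 on the log2 scale with CHIR99021 (adjusted p = 1.06e-07) and fell by 0.79 ± 0.06 with AICAR (adjusted p = 1.22e-05). Xaf1, a pro-apoptotic gene, rose by 1.43 ± 0.07 and 1.80 ± 0.07 (adjusted p = 3.02e-06 and 7.19e-07). The direction of change thus differed between genes of the list.

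With CHIR99021 the oligoadenylate synthetase gene Oas2 fell by 1.68 ± 0.06 on the log2 scale and Oas3 by 1.44 ± 0.15 (adjusted p = 6.73e-07 and 0.000133), while their relative Oas1a rose by 0.78 ± 0.05 (adjusted p = 6.94e-06). The level of Oas2 was 0.47, 0.48 and 0.42 in DMSO, -1.12, -1.21 and -1.34 with CHIR99021, and 0.20, 0.22 and 0.18 with AICAR. Its CHIR99021 arrays were the lowest and no groups overlapped, but its AICAR call (-0.26 ± 0.06, adjusted p = 0.00734) was lost on the spike-in scale (-0.07, adjusted p = 0.618). With AICAR Rsad2, which encodes the antiviral enzyme viperin, was at least 5.34-fold higher (adjusted p = 0.000307), above background on all 3 AICAR arrays and on no other. Samd9l, a restriction factor of poxviruses, fell by 1.44 ± 0.05 with AICAR (adjusted p = 3.56e-07). Uba7, which activates ISG15, was higher at 1.33 ± 0.44 (adjusted p = 0.0301), a call lost without any 1 of the 3 DMSO arrays (adjusted p = 0.0719, 0.0672 and 0.0664), without AICAR replicate 3 (0.0985) and with the series matrix values (0.0509).

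The other interferon-induced GTPases, which share the family or the role of Gbp2, fell in 7 of 12 tested genes with CHIR99021 and rose in 3. With AICAR 4 fell and 3 rose. All features fell and rose at 20.5% and 30.4% with CHIR99021 and at 29.6% and 30.9% with AICAR. The AICAR counts are near these shares. Gbp3 had a level of -3.16, -2.98 and -3.13 in DMSO, -4.44, -4.98 and -5.45 with CHIR99021, and -3.38, -3.83 and -3.79 with AICAR. Every CHIR99021 array was below every other array, as for Gbp2. Gbp3 fell by 1.87 ± 0.24 on the log2 scale with CHIR99021 (adjusted p = 0.000389), and with normexp the difference was -0.82. The AICAR difference of Gbp3, -0.57 ± 0.24, missed the threshold (adjusted p = 0.0677), and it passed under other scalings such as quantile normalization (adjusted p = 0.0334). Of the immunity-related GTPases, Igtp and Irgm2 fell with CHIR99021, by 1.23 ± 0.06 and 1.00 ± 0.12 (adjusted p = 1.92e-06 and 0.000266). Gbp5 and Gbp6, of the Gbp2 family, were higher with CHIR99021 than in DMSO, as was Iigp1. The level of Gbp5 was -5.78, -5.61 and -6.38 in DMSO and -5.28, -4.77 and -5.25 with CHIR99021. That of Gbp6 was -4.85, -5.11 and -5.16 in DMSO and -4.24, -4.68 and -4.48 with CHIR99021.

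The 4 GTPase genes that fell with AICAR, Irgm1, Gbp4, Gbp9 and Tgtp2, were among the 7 that fell with CHIR99021. Irgm1, a regulator of the other immunity-related GTPases, had a level of -2.30, -2.38 and -2.32 in DMSO, -2.77, -2.90 and -2.93 with CHIR99021, and -4.27, -4.74 and -4.37 with AICAR. Its groups did not overlap, and AICAR was lowest. Irgm1 fell by 2.13 ± 0.12 on the log2 scale with AICAR (adjusted p = 2.8e-06), and Gbp4 and Gbp9 fell by 1.64 ± 0.08 and 1.51 ± 0.14 (adjusted p = 1.91e-06 and 4.11e-05). Tgtp2 fell under both treatments, by 0.87 ± 0.10 with CHIR99021 and 1.22 ± 0.10 with AICAR (adjusted p = 0.000203 and 1.94e-05). Its near-identical copy Tgtp1 passed in neither. The level of Tgtp1 was -5.52, -5.31 and -5.11 in DMSO and -4.64, -4.93 and -4.68 with CHIR99021, so it differed in the opposite direction to Tgtp2. Whether either probe also binds transcripts of the other copy was not tested.

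MHC class I genes, whose products load and show peptides at the cell surface and which interferon gamma is known to raise, fell with CHIR99021 in 11 of 14 tested genes, and 1 rose, beside 20.5% and 30.4% of all features. Erap1 passed the filter only through its DMSO and AICAR arrays, and without it 10 of 13 fell (median log2 fold change -0.38). On the spike-in scale 8 of the 14 fell. With AICAR 7 rose and 2 fell, beside 30.9% and 29.6%. Psmb8, an immunoproteasome subunit gene, had a level of -2.03, -2.03 and -1.96 in DMSO, -5.10, -5.04 and -5.38 with CHIR99021, and -2.75, -2.48 and -2.64 with AICAR. The CHIR99021 arrays were far below the others, the same order of groups as for Gbp2. Psmb8 fell by 3.17 ± 0.10 on the log2 scale with CHIR99021 (adjusted p = 3.78e-07, and a difference of -1.55 with normexp) and by 0.62 ± 0.10 with AICAR (adjusted p = 0.00115).

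H2-K1, a class I heavy chain gene, had a level of 2.43, 2.47 and 2.58 in DMSO, 1.69, 1.86 and 1.84 with CHIR99021, and 3.07, 3.00 and 2.90 with AICAR. Its groups did not overlap and lay on opposite sides of DMSO. H2-K1 fell by 0.70 ± 0.07 on the log2 scale with CHIR99021 (adjusted p = 0.000129) and rose by 0.50 ± 0.07 with AICAR (adjusted p = 0.000537). Psmb9, the next immunoproteasome subunit gene, fell by 0.83 ± 0.06 and rose by 0.79 ± 0.06 (adjusted p = 1.79e-05 and 1.36e-05).

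The peptide transporter gene Tap1 had a level of -4.91, -4.80 and -4.84 in DMSO, -5.43, -5.61 and -5.25 with CHIR99021 (1 array not well above background), and -3.59, -3.35 and -3.60 with AICAR. Here too the groups lay apart on opposite sides of DMSO. Tap1 fell by 0.58 ± 0.10 on the log2 scale with CHIR99021 (adjusted p = 0.00224) and rose by 1.34 ± 0.10 with AICAR (adjusted p = 1.76e-05), and with normexp these differences were -0.14 and 0.46. Its partner Tap2 fell by 1.46 ± 0.26 with CHIR99021 (adjusted p = 0.00238) and was at 0.67 ± 0.26 with AICAR (adjusted p = 0.0564). The AICAR difference of Tap2 passed under some alternatives, among them normexp (adjusted p = 0.0246) and spike-in scaling (0.0189). With AICAR the heavy chain gene H2-T23 rose by 0.78 ± 0.06 (adjusted p = 1.28e-05), and Psmb10, another immunoproteasome subunit gene, fell by 1.01 ± 0.06 (adjusted p = 3.56e-06). B2m, the light chain of class I, rose under both treatments, by 0.82 ± 0.05 and 0.57 ± 0.05 (adjusted p = 5.38e-06 and 2.42e-05).

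In the direct comparison, 10 of the 14 class I genes were lower with CHIR99021 than with AICAR and 2 were higher, beside the 24.6% and 36.2% of all features. Without Erap1 10 of 13 were lower. The log2 fold change of CHIR99021 against AICAR was -2.55 ± 0.10 for Psmb8, -1.92 ± 0.10 for Tap1, -1.62 ± 0.06 for Psmb9 and -1.19 ± 0.07 for H2-K1 (adjusted p = 5.78e-07, 2.29e-06, 3.81e-07 and 3.89e-06). Over the 6 scaling and block alternatives, 9 to 11 of the 14 were lower.

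**Figure D5:**
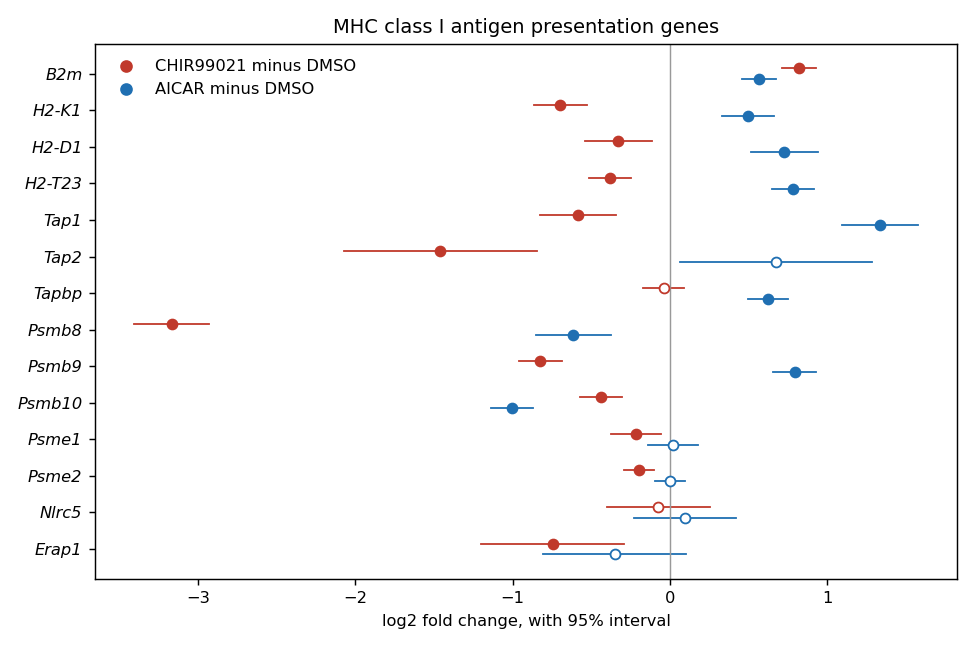
Points are log2 fold changes of the 14 MHC class I genes against DMSO for CHIR99021 (red) and AICAR (blue), with 95% intervals as lines and filled points where the adjusted p was under 0.05. Most red points lie below 0, B2m is the gene that rose under both treatments, and H2-K1, Tap1 and Psmb9 lie on opposite sides of 0.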

How the data were processed

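Total RNA of 9 samples, 3 per group, was measured on one-colour Agilent arrays. The authors deposited scanner files with a linear intensity per spot, written by Agilent Feature Extraction 10.7.3.1 per the file headers. The deposited series matrix holds log2-like values per probe of unstated centring. It followed the log2 processed signal (r = 0.99962 to 0.99999, equal column medians of 5.18) and served as an alternative.

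The processed signal was taken to log2, each array's 75th percentile (of 59305 non-control spots) was subtracted, and spots were averaged per probe without outliers. Of 55681 probes, 37742 were well above background on at least 3 of 9 arrays. Names came from each probe's accession through RefSeq (GRCm38.p6, 27235 probes matched), and promoters from the same source. The brightest passing probe stood for a gene, or for a target name without a gene symbol. All 26866 features were fitted with limma 3.58.1 (R 4.3.3), with Benjamini-Hochberg adjustment, after tests on simulated data. In 71 features an array had no value, and the fit dropped it.

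The members and lists were chosen with earlier results of these data known. Named genes were all members and relay and receptor genes, up to 4 called genes with the largest change per list and treatment, and the 3 nearest profiles. A few genes so chosen are not reported here. H2-K1, Tgtp1, Oas1a, Herc6, Erap1 and the marker genes were named after their values were seen. Alternatives changed the scaling, background, filter, probe rule, arrays and block. Same-numbered replicates were not treated as pairs, since the labels do not say that a number marks a shared culture or day. Deviations from the group means correlated at -0.05 to 0.09 between same-numbered arrays and at -0.13 to 0.11 between others. These values do not decide whether cultures were shared.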

Additional observations from a re-analysis of the deposited data

How the results depend on the processing

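Counts of called features moved by over 1.5 times only on the spike-in scale (10 control transcripts added to the RNA), to 8869 in CHIR99021 against DMSO, where the main count was 13696. On that scale 2 of the 9 genes were called in AICAR against DMSO, Bst2 and Oasl2. It also moved the median of all features from 0.03 to 0.22 with AICAR and from 0.10 to -0.13 between the treatments. The higher and lower calls with AICAR were 8310 and 7942 as reported, 9954 and 3720 on the spike-in scale, and 6573 and 9515 with median scaling. With CHIR99021 against DMSO they were 8180 and 5516 as reported, 4586 and 4283 on the spike-in scale, and 6516 and 6403 with median scaling. Between the treatments they were 9722 and 6606, and 3574 and 8216 on the spike-in scale. The shares of all features set beside the lists are thus those of the main scaling. The direct difference of Irf7 ran from -1.01 to 0.73 with 1 array left out, and the lowest value, without CHIR99021 replicate 1 on which that dim probe stood apart, was called and reversed in sign. Leaving out 1 array at a time gave 11745 to 14027, 14569 to 16158 and 14934 to 16040 called features in the 3 comparisons, and 3 to 4 called members in each. A replicate block left 4, 4 and 3 members called (12711, 15460 and 15682 features), although the labels do not say that the numbers pair samples. Requiring all 9 arrays above background left Cxcl10 and Irf7 untested. The slide could not be used as a block, since each holds 1 group. Normexp used the median spot signal, chosen after the files were seen because they hold no mean signal. Genes below background have bounds only, and 3 arrays per group limit the precision.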

Other observations

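Genes of the NF-kB pathway, which shares targets such as Cxcl10 with interferon signalling, moved both ways. Of 9 tested, 3 rose and 3 fell with CHIR99021, beside 30.4% and 20.5% of all features. With AICAR 4 rose and 4 fell, beside 30.9% and 29.6%. Relb, a subunit of the alternative pathway, rose by 1.45 ± 0.10 on the log2 scale with CHIR99021 and 0.51 ± 0.10 with AICAR (adjusted p = 1.34e-05 and 0.00256). Nfkb2, its partner, rose by 1.47 ± 0.10 with AICAR (adjusted p = 1.01e-05), as did the feedback inhibitor gene Tnfaip3 and the adhesion gene Icam1, by 1.12 ± 0.10 and 1.09 ± 0.06 (adjusted p = 4.13e-05 and 2.65e-06). Ccl2, a chemokine gene, fell under both treatments, by 0.60 ± 0.09 with CHIR99021 and 0.72 ± 0.09 with AICAR (adjusted p = 0.000876 and 0.000225). Il6 and Tnf were above background on no array.

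Among the myeloid markers, Cd14, a coreceptor for bacterial lipopolysaccharide, fell by 2.06 ± 0.09 with CHIR99021 and by 0.88 ± 0.09 with AICAR (adjusted p = 1.5e-06 and 8e-05). Of the 6 tested, 3 rose with each treatment against DMSO. With CHIR99021 only 1 rose with quantile normalization and 1 on the spike-in scale. With AICAR 2 rose with quantile normalization and 3 on the spike-in scale. Of all features, 30.4% rose with CHIR99021 and 30.9% with AICAR.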
